A study of Mus musculus with 11 samples.

Results

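The genes described here are 10 readthrough candidates, chosen by symbol from the 32287 genes of the count tables: Ckap2l, Rnaseh2a, Trim69, Lsmem1, Nup210l, Tspoap1, Fbxl18, Dand5, Cc2d2b and Iqcn. They lie behind, in this order, Il1a, Junb, B2m, Ifrd1, Tpm3, Mir142hg, Actb, Calr, Entpd1 and Jund, called their upstream genes below. The candidates were named with earlier results of these data known, and the values that led to the choice are not recorded with the list. Results of microglia were among those known, so the candidates are described there without a test. The question was whether a cell with 1 candidate detected held the others more often at equal depth, in microglia and in endothelial cells (EC), vascular smooth muscle cells (SMC) and B cells.

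The cells came from the brain vessels of 11 untreated transgenic mice, each giving 1 library. The 6 R182C-TgN3 mice (line Tg350 in the labels) carried human NOTCH3 with the R182C change of CADASIL, an inherited small vessel disease, and 3 of them were 9 months old and 3 were 6 months old. The 5 WT-TgN3 mice (line Tg100) carried unmutated human NOTCH3, and 3 of them were 6 months old and 2 were 9 months old. Both groups held females and males, and both carried the human transgene, so neither is a mouse without one. Vessel cells were captured by antibodies to CD31, a surface protein of EC, so the microglia, SMC and B cells are those that came along with the vessels. In all, 58097 cells from 17550806 to 64215050 UMIs (unique molecular identifiers, the counted molecules) per library passed the filters and doublet removal, with medians of 3485 to 7636 UMIs per cell. They held 29422 EC, 14226 microglia, 2207 SMC and 725 B cells, named from marker genes of clusters. A further 7819 cells (13.5%) lay in clusters left unnamed by the naming rule. Among them was a cluster of 3258 cells whose best match was EC, so the EC used here are not all EC captured. Of 65086 distinct cell barcodes, 966 occurred in more than 1 library, most of them between R182C-TgN3 mice 4, 5 and 6 and WT-TgN3 mouse 3 (350 between R182C-TgN3 mice 4 and 5), and the co-detection excess in EC and microglia and its difference between genotypes are given without these cells too.

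At the end of a gene, RNA polymerase II runs past the site where the transcript will be cut. The cleavage and polyadenylation complex recognises a short signal, most often AATAAA, cuts the RNA and adds the poly(A) tail, and the exonuclease Xrn2 then helps to take the polymerase off the DNA. Where the cut comes late, transcription can go on into the next gene on the same strand, which is called readthrough and is known from cells under heat, salt or oxygen stress and from viral infection. A library that counts 3′ ends assigns each read to the annotated gene it overlaps, so RNA made that way is counted for the downstream gene. The counts carry no read positions, and whether single molecules of the candidates began in the upstream gene was not seen in these data.

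Each candidate lay on the strand of its upstream gene in the GENCODE annotation of GRCm38 (mm10), with its start 2076 to 19026 bases past the annotated end of that gene. Lsmem1, a small membrane protein (chr12:40175493-40199490, minus strand), began 2076 bases past Ifrd1 (chr12:40201567-40248504), a transcriptional co-regulator. Ckap2l, a protein of the mitotic spindle (chr2:129268210-129297212, minus strand), began 2397 bases past Il1a (chr2:129299610-129309972), the cytokine interleukin 1 alpha. Iqcn, an IQ-motif protein (chr8:70703457-70717650, plus strand), began 2840 bases past Jund (chr8:70698949-70700616), a subunit of the AP-1 transcription factor. Nup210l, a relative of the nuclear pore protein Nup210 (chr3:90104132-90212048, plus strand), began 3229 bases past the tropomyosin gene Tpm3 (chr3:90072649-90100902). Tspoap1, whose product binds the mitochondrial protein TSPO (chr11:87760541-87785928, plus strand), began 3270 bases past Mir142hg (chr11:87755577-87757270), the host transcript of a microRNA of blood cells.

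The gap was 4716 bases from Junb (chr8:84974484-84978718), another AP-1 subunit, to Rnaseh2a, the catalytic subunit of RNase H2 (chr8:84956610-84969767, minus strand). It was 7150 bases from Entpd1 (chr19:40612366-40741602), the ectonucleotidase CD39, to Cc2d2b, a coiled-coil and C2 domain protein (chr19:40748753-40827743, plus strand). From B2m (chr2:122147686-122153083), the light chain of MHC class I, to Trim69, a member of the TRIM family of ubiquitin ligases (chr2:122160700-122179027, plus strand), it was 7616 bases. From the actin gene Actb (chr5:142903115-142906754) to Fbxl18, an F-box adaptor of a ubiquitin ligase (chr5:142866946-142895421, minus strand), it was 7693 bases. Dand5, a secreted antagonist of the DAN family (chr8:84815405-84822823, minus strand), lay farthest, 19026 bases past Calr (chr8:84841850-84846934), a chaperone of the endoplasmic reticulum. Prdx2, Patl2, Gm14023, Gm17056 and Gadd45gip1 lay in the gaps on the opposite strand.

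The last 30 bases of the annotated upstream transcripts (GENCODE transcripts of GRCm38) are shown for 4 of the pairs whose upstream gene was higher in EC or microglia with the candidate than without it, since the cleavage signal stands there. They are given 5′ to 3′ on the strand of the gene, with the signal in capitals where AATAAA or ATTAAA was present.
Il1a, chr2:129299610-129299639, minus strand: atcataattaAATAAAacaggtttgagctg
Ifrd1, chr12:40201567-40201596, minus strand: tcaagttcagaATTAAAcattgggcgattc
Tpm3, chr3:90100873-90100902, plus strand: tgaAATAAAgaaccagtccctccacgatca
Jund, chr8:70700587-70700616, plus strand: tgtgttttcagtaaagtcttcgttacgcca
Il1a and Tpm3 ended with AATAAA, Ifrd1 with the common variant ATTAAA, and the Jund window held neither. Over the 10 upstream genes, 6 held AATAAA or ATTAAA in this window, against 15806 of 27803 protein-coding and lincRNA genes (56.9%). AATAAA itself was in 5 of the 10 (50%), against 46.0% of all. A match is only these letters in this window, on the transcript strand, and 1 transcript was read per gene.

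In EC the candidates were low genes behind abundant ones. Levels are CPM, the UMIs of a gene summed over the cells of a mouse and scaled to the same total in every mouse, and n is 11 mice unless stated. Nup210l had the highest level in EC, at 23.0, 59.8 and 166 CPM in the lowest, the median and the highest mouse (75.9 ± 42.0, SD), with R182C-TgN3 mouse 2 far above the others. Fbxl18 lay at 13.6, 34.0 and 53.4 CPM, Iqcn at 8.38, 28.9 and 47.8 CPM and Rnaseh2a at 18.6, 29.6 and 40.2 CPM. Dand5 lay at 12.5, 21.4 and 29.6 CPM, Lsmem1 at 3.39, 17.6 and 53.2 CPM and Trim69 at 6.90, 13.9 and 28.3 CPM. These ranges overlapped between neighbours in the order, so the order of Fbxl18, Iqcn and Rnaseh2a (33.4 ± 10.4, 31.6 ± 11.1 and 30.5 ± 6.61 CPM) is within their spread over mice, as is that of Dand5 and Lsmem1 (21.6 ± 4.66 and 20.2 ± 14.3 CPM). Cc2d2b reached 4.73 ± 2.10 CPM, and Ckap2l and Tspoap1, whose upstream genes Il1a (2.36 CPM) and Mir142hg (3.43 CPM) were themselves low in EC, stood at 0.452 ± 0.252 and 0.0582 ± 0.0684 CPM, so for these 2 pairs the name behind a highly expressed gene does not describe EC. R182C-TgN3 mouse 2 was highest for 6 of the 10 candidates in EC and WT-TgN3 mouse 4 lowest for 8, and the summed level ran from 88.2 CPM in the latter to 417 CPM in the former.

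Microglia held the candidates in another order. Iqcn led at 21.7, 58.7 and 107 CPM (60.6 ± 25.1) and Ckap2l followed at 3.43, 24.7 and 98.2 CPM (27.7 ± 24.9), the highest value being that of R182C-TgN3 mouse 5. Nup210l stood at 19.5 ± 3.65 CPM and the other 7 candidates between 1.49 ± 0.783 (Tspoap1) and 9.38 ± 1.74 CPM (Rnaseh2a). The neighbours Rnaseh2a, Dand5 (8.63 ± 2.60), Trim69 (8.11 ± 2.99) and Fbxl18 (7.27 ± 1.78) did not stand apart beyond their spread. In SMC Iqcn and Rnaseh2a were highest, at 13.03 ± 5.44 and 13.03 ± 3.98 CPM, and Trim69 was at 0 in 8 of 11 mice. In the 725 B cells Nup210l (16.5 ± 9.67 CPM, n = 10 mice) and Rnaseh2a (15.6 ± 10.9 CPM) were the highest. Levels across cell types are a description, since the types came from clusters of the same data.

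**Figure D1:**
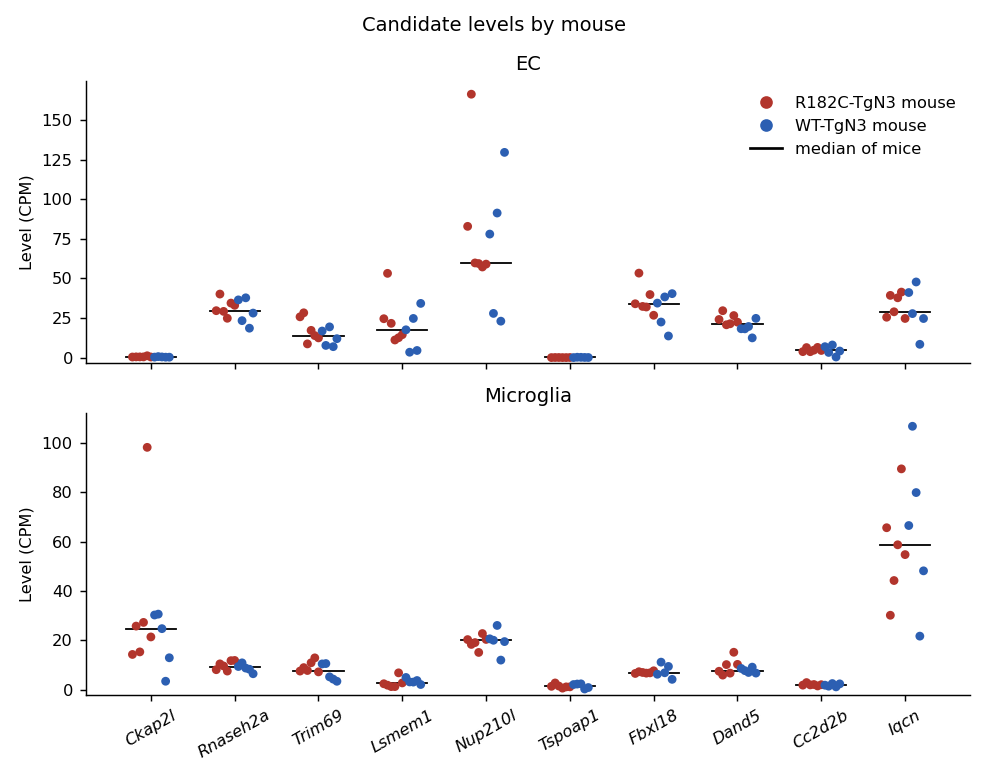
Level of each candidate (CPM, linear axis) in EC (top) and microglia (bottom); each point is 1 mouse, red R182C-TgN3 and blue WT-TgN3, and the line is the median of mice. Nup210l spans 23.0 to 166 CPM in EC and Ckap2l and Iqcn lead in microglia, with the genotypes overlapping for every candidate plotted.

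Between the cell types the candidates were not in proportion to their upstream genes. Ifrd1 stood at 367 CPM in EC and 795 CPM in microglia, whereas Lsmem1 had 53.6 UMIs per 1000 Ifrd1 UMIs in EC and 3.23 in microglia, pooled over mice. Nup210l had 135 UMIs per 1000 Tpm3 UMIs in EC, 26.6 in microglia, 32.9 in SMC and 59.5 in B cells. For Dand5 the numbers per 1000 Calr UMIs were 96.3 in EC, 19.4 in microglia, 62.7 in SMC and 27.8 in B cells. Fbxl18 reached 12.6 per 1000 Actb UMIs in EC and 2.18 in microglia, and Rnaseh2a 15.8 per 1000 Junb UMIs in EC and 3.60 in microglia. Iqcn went the other way, with 15.4 per 1000 Jund UMIs in EC and 21.5 in microglia. Ckap2l had 52.9 per 1000 Il1a UMIs in microglia and 163 in EC, where the latter rests on 87 Ckap2l and 533 Il1a UMIs. These shares compare UMI counts of 2 genes within a cell type and are not per transcript length. No test was made of them.

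Co-detection was measured after each cell had been thinned to 2000 UMIs at random, so that all cells had equal depth. For each mouse, the number of cells with both genes of a pair was summed over the 45 pairs and set against the number expected if the genes were detected independently, and the difference was given per 1000 cells. In EC the candidates were found together more often than expected in 11 of 11 mice. The excess was 14.2, 25.1 and 81.4 pairs per 1000 cells in the lowest, the median and the highest R182C-TgN3 mouse, and 44.1, 8.88, 38.6, 7.61 and 45.3 in WT-TgN3 mice 1 to 5. All values lay above 0, and the genotypes overlapped. The mean was 33.8 ± 22.9 (SD, n = 11). In all, 2152 pairs were observed where 1184 were expected, a ratio of 1.82 with a 95% Poisson interval of 1.74 to 1.90. Such an interval leaves out the spread between mice. It takes pairs as independent, whereas a cell with at least 3 candidates adds several, so it can be too narrow. The 2-sided exact permutation test over mice, which changes the signs of the mice's values in all ways, gave p = 0.000977, the smallest it can give. At least 1 candidate was detected in 13.3% to 33.3% of EC per mouse and at least 2 in 1.59% to 10.2%. At least 2 candidates were found in 1459 EC against 1012 expected and at least 3 in 279 against 79.6.

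The excess in EC was partly one between clusters. When the expected number was formed within each EC cluster, the mean excess was 19.1 pairs per 1000 cells with a ratio of 1.35, again with p = 0.000977 in the exact permutation test (n = 11). In cluster 10, 51.9% of 2898 EC held a candidate and 17.1% held at least 2, whereas 4 clusters had shares with a candidate of 14.0% to 16.0%. The 10 leading genes of cluster 10 included Pde4c, Gm3336, Gm26802 and Gm47507, which return below. The fits below of EC with and without a candidate were not made within clusters. Without cluster 10, an alternative added after the data had been seen, the excess was 25.4 per 1000 cells with a ratio of 1.85. Without cells whose barcode was in more than 1 library it was 33.9, and with the expected number formed within 5 groups of cells ordered by their Malat1, a nuclear RNA, it was 33.0. Leaving out 1 candidate gave 18.0 without Nup210l, 20.7 without Fbxl18 and 23.0 to 33.8 for the others, and leaving out any 1 mouse 29.0 to 36.4. Before thinning, the median depth was 4821 UMIs in EC with no candidate, 5629 with 1 and 6844 with at least 2, and the share of cells next to the doublet limit was 5.06%, 8.79% and 14.6%. With the number of removed doublets doubled the excess was 31.4, and without thinning it was 495 with a ratio of 2.41.

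In SMC and B cells no excess was detectable at this number of cells. At least 1 candidate was detected in 6.56% to 12.8% of SMC per mouse. The 11 mice had SMC values from −3.54 to 10.7 pairs per 1000 cells (median −1.70), 4 of them above 0, with a mean of 0.538 ± 4.65 and p = 0.724 in the 2-sided exact permutation test. In 2189 SMC only 7 pairs were observed where 7.43 were expected, a ratio of 0.942 with an interval of 0.379 to 1.94, which includes the ratio of EC. Of 10 mice with enough B cells, 3 had values above 0, from −3.33 to 41.3, with a mean of 5.22 ± 14.4 and p = 0.422 in the exact permutation test. The highest was that of R182C-TgN3 mouse 5, with 1 pair in 22 cells, and without this mouse the mean was 1.21. There were 4 pairs where 2.19 were expected (ratio 1.82, interval 0.497 to 4.67). The difference between EC and these types was not tested. Pericytes, with 8 pairs against 7.38 expected, were as sparse.

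In microglia the value was above 0 in 10 of 11 mice. The lowest, the median and the highest R182C-TgN3 mouse had −0.0798, 20.5 and 36.3 pairs per 1000 cells, and WT-TgN3 mice 1 to 5 had 17.8, 25.8, 19.1, 0.947 and 5.26. R182C-TgN3 mice 3 and 4 and WT-TgN3 mouse 4 lay near 0. The mean was 16.5 ± 13.5, and 460 pairs were observed where 265 were expected (ratio 1.74, interval 1.58 to 1.90). At least 1 candidate was detected in 12.97% to 30.4% of microglia per mouse. The excess was 15.9 with the expected number formed within clusters, 15.6 without the shared barcodes and 9.59 without Ckap2l. The clusters were those of resolution 1.0. At resolution 2.0 a cluster of 121 microglia had Ckap2l and Trim69 among its 10 leading genes. The excess with the expected number formed within those finer clusters was not computed. At least 3 candidates were found in 39 microglia against 12.1 expected. The median depth before thinning was 5509 UMIs in microglia with no candidate and 5083 with at least 2, lower in the latter, whereas it was higher in EC. Fenestrated EC, a separate cluster that was not part of the test, held 317 pairs against 238 expected (ratio 1.33) and had higher levels of Nup210l (154 ± 95.4 CPM) and Fbxl18 (112 ± 46.5 CPM).

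**Figure D2:**
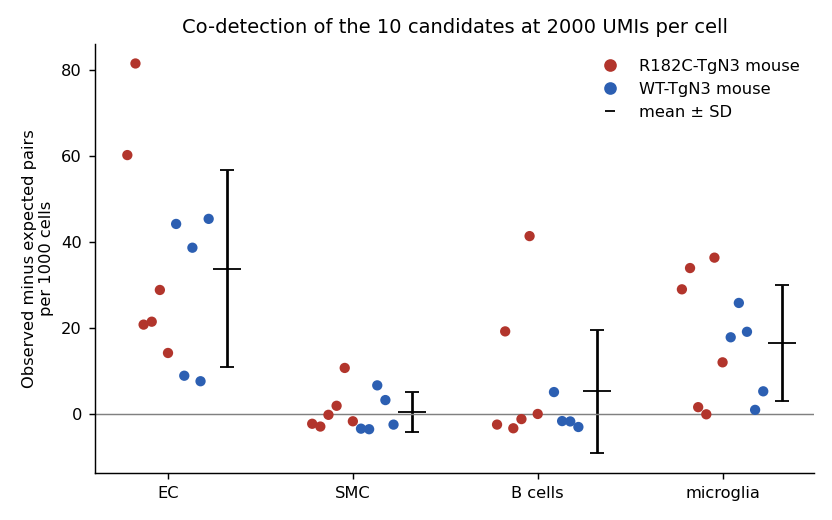
Observed minus expected pairs of the 10 candidates per 1000 cells (linear axis) by cell type at 2000 UMIs per cell; each point is 1 mouse and the bars give mean ± SD. All 11 EC points lie above 0 (7.61 to 81.4), SMC and B cells lie on both sides of 0, and microglia have 10 of 11 above 0.

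The excess in EC was spread over many pairs of candidates, though not all. Of the 45 pairs, 33 had more cells than expected. Among the 26 pairs with at least 5 expected cells, the ratio of observed to expected was above 1 in 26, from 1.27 (Rnaseh2a with Nup210l) to 2.68 (Lsmem1 with Nup210l), with a median of 1.84. Nup210l and Fbxl18 were found together in 249 cells against 124 expected, above 1 in 11 of 11 mice. Nup210l and Iqcn shared 188 cells against 102 expected and Fbxl18 and Iqcn 127 against 60.6, also above 1 in 11 of 11 mice. Rnaseh2a and Trim69 shared 74 against 27.8. Nup210l lies on chromosome 3, Fbxl18 on 5 and Trim69 on 2, so most pairs are not neighbours. Rnaseh2a, Dand5 and Iqcn share chromosome 8, and without the pair of Rnaseh2a and Dand5, which lie close together there, the excess was 32.7. Of the 29 EC with Ckap2l, 24.1% held another candidate, against 24.5% of the EC without it, and Tspoap1 was found in 4 EC, 0 of which held another. In microglia the ratio was above 1 in 13 of the 14 pairs with at least 5 expected cells, with a median of 1.49.

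Seen from each candidate, EC with Lsmem1 had another candidate in 42.7% ± 14.4 (n = 11 mice) of cells and EC without it in 23.4% ± 4.84, higher in 10 of 11 mice. For Nup210l, detected in 2337 EC or 8.38%, the shares were 31.6% ± 8.21 and 18.2% ± 3.57, higher in 11 of 11. For Fbxl18 they were 38.5% ± 10.4 and 21.1% ± 4.89, and for Iqcn 40.1% ± 9.13 and 21.4% ± 5.05, both higher in 11 of 11. Rnaseh2a and Trim69 also had the higher share in 11 of 11 mice, Dand5 in 10 of 11 and Cc2d2b in 9 of the 10 mice with at least 5 such cells. Ckap2l was detected in 29 EC and Tspoap1 in 4, too few to compare. In microglia the same shares were 33.5% ± 9.34 with Ckap2l and 19.0% ± 3.92 without it, higher in 10 of 10 mice, and 14.7% ± 5.06 with Iqcn and 12.1% ± 2.42 without it, higher in 8 of 11.

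Whether a candidate went with its own upstream gene more than with the upstream genes of the other candidates was measured within each mouse on a log2 scale, as observed over expected UMIs of the upstream gene in cells with the candidate, with a pseudocount of 0.5 UMIs. In EC the own upstream gene was at 0.30 ± 0.11 and the others at 0.01 ± 0.06 (n = 11). The difference was 0.14, 0.30 and 0.54 in the lowest, the median and the highest mouse, with a mean of 0.30 ± 0.12 and p = 0.000977 in the 2-sided exact permutation test. It was above 0 in 11 of 11 mice. In SMC it was 0.09 ± 0.17, above 0 in 9 of 11 mice (exact permutation p = 0.104), and in B cells −0.03 ± 0.20, above 0 in 4 of 10 (exact permutation p = 0.643). In SMC the own upstream gene was at −0.017 ± 0.13 and the others at −0.11 ± 0.09. In microglia the difference was 0.36 ± 0.20, above 0 in 10 of 11 mice, with the own upstream gene at 0.17 ± 0.20 and the others at −0.19 ± 0.09, so that both parts went into it.

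The pairs differed in this. EC with Lsmem1 held 1.00, 1.21 and 2.12 Ifrd1 UMIs per 2000 UMIs in the lowest, the median and the highest mouse, and EC without it 0.347, 0.511 and 0.809. The groups did not overlap, and the means were 1.37 ± 0.343 and 0.532 ± 0.170. EC with Nup210l held 0.962, 1.31 and 1.80 Tpm3 UMIs and EC without it 0.747, 0.851 and 0.967, so that the ranges overlapped only at their ends (means 1.35 ± 0.270 and 0.862 ± 0.0868, higher in 11 of 11 mice). EC with Iqcn held 4.74 ± 1.16 Jund UMIs against 3.24 ± 0.667, higher in 10 of 11 mice. EC with Cc2d2b held 0.724 ± 0.329 Entpd1 UMIs against 0.430 ± 0.0651, higher in 10 of 10 mice, and EC with Trim69 held 2.26 ± 0.487 B2m UMIs against 1.98 ± 0.481, higher in 11 of 11.

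For Fbxl18 and Dand5 in EC the own upstream gene hardly moved, and for Rnaseh2a it was lower in most mice. Ckap2l and Tspoap1 were detected in 29 and 4 EC, too few to read. Actb stood at 5.08 ± 0.557 UMIs in EC with Fbxl18 and 4.85 ± 0.467 without it (higher in 7 of 11 mice), and Calr at 0.425 ± 0.0776 with Dand5 and 0.439 ± 0.0344 without it. Junb stood at 2.70 ± 0.608 in EC with Rnaseh2a and 2.97 ± 0.590 without it, higher in 3 of 11 mice. In microglia the widest gap was that of Ckap2l, whose cells held 1.88, 2.27 and 3.03 Il1a UMIs in the lowest, the median and the highest of 10 mice, against 0.652, 0.854 and 1.07 in cells without it. These ranges did not overlap. Microglia with Iqcn held 6.35 ± 1.30 Jund UMIs against 5.13 ± 1.01, higher in 11 of 11 mice, whereas those with Fbxl18 held 5.25 ± 2.06 Actb UMIs against 5.92 ± 0.924, higher in 4 of 11.

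**Figure D3:**
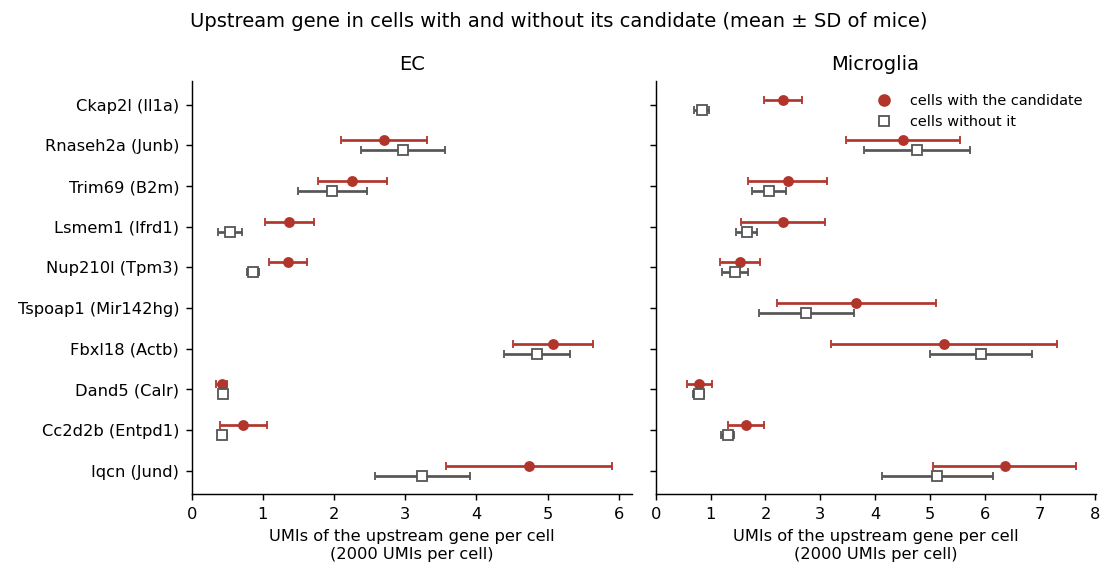
UMIs of the upstream gene per cell at 2000 UMIs per cell, in cells with (red circles) and without (open squares) the candidate behind it, as mean ± SD of the mice with at least 5 such cells, for EC (left) and microglia (right). Ifrd1, Tpm3, Jund and Entpd1 are higher in EC with their candidates and Il1a in microglia with Ckap2l, while Junb, Actb and Calr lie close together. Pairs with too few such mice are left empty.

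To read each candidate in cells that it had not chosen itself, the candidates were split by their order in the list. The last 5 were read between EC with and without any of the first 5, and the first 5 between EC with and without any of the last 5, in counts summed per mouse with the mouse as a block (edgeR quasi-likelihood test, Benjamini-Hochberg adjustment over 15582 genes). Of the 10 candidates 9 passed the filter of 20 UMIs in EC, Tspoap1 not. Of the last 5, the 4 that passed were all higher (Fbxl18, Iqcn, Dand5 and Cc2d2b), where 3.9% of all genes tested were called higher. Of the first 5, 4 were higher and Ckap2l was not, where 2.21% of all genes were called higher.

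Fbxl18 had 21.4, 53.0 and 79.2 CPM in EC with a candidate of the first 5, in the lowest, the median and the highest mouse, and 15.1, 22.2 and 27.2 CPM in EC without. The ranges overlapped, but it was higher in 11 of 11 mice, with a log2 fold change of 1.23 ± 0.09 (SE, edgeR adjusted p = 2.5e-35). Nup210l had 38.4, 71.2 and 211 CPM in EC with a candidate of the last 5 and 17.4, 36.6 and 92.2 CPM in EC without (1.05 ± 0.07, edgeR adjusted p = 2.7e-46, higher in 11 of 11 mice). Rnaseh2a had 29.9, 45.2 and 65.7 against 15.4, 25.4 and 32.1 CPM (0.95 ± 0.10, edgeR adjusted p = 1.5e-18, 11 of 11 mice). Lsmem1 had 4.98, 20.4 and 83.6 against 1.40, 10.4 and 22.5 CPM (1.21 ± 0.14, edgeR adjusted p = 1.8e-14, 9 of 11 mice). All of these ranges overlapped, since the mice differed much in level, while within nearly every mouse the cells with another candidate were higher.

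Iqcn rose by 1.12 ± 0.10 and Trim69 by 1.14 ± 0.15 on the log2 scale in these fits (edgeR adjusted p = 2.1e-24 and 1.2e-11). Dand5, which lies farthest behind its upstream gene, rose least, by 0.59 ± 0.11 (27.1 ± 9.52 against 18.9 ± 4.85 CPM, edgeR adjusted p = 2.2e-05, higher in 9 of 11 mice), and at 1000 UMIs per cell it did not pass (0.46, edgeR adjusted p = 0.203). Cc2d2b rose by 1.15 ± 0.26 (edgeR adjusted p = 0.000439, higher in 8 of 11 mice). Ckap2l, with 4 UMIs in EC with a candidate and 25 in EC without, stood at 0.12 ± 0.76 (edgeR adjusted p = 0.973). In microglia all 10 candidates had enough UMIs, and the values, given with no test, were above 0 for each, from 0.33 ± 0.13 (Iqcn) and 0.48 ± 0.28 (Rnaseh2a) to 1.87 ± 0.44 (Lsmem1) and 1.97 ± 0.55 (Cc2d2b). Those of Tspoap1, Cc2d2b, Lsmem1 and Fbxl18 there rest on 9 to 24 UMIs in the cells with a candidate.

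**Figure D4:**
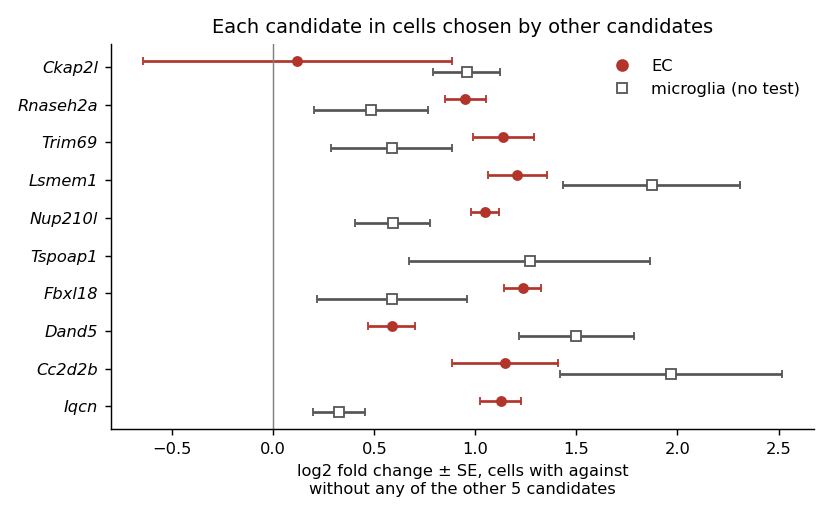
Log2 fold change ± SE of each candidate between cells with and without any of the 5 candidates of the other part of the list, in EC (red) and microglia (open squares, no test made). In EC 8 of the 9 candidates plotted lie between 0.59 and 1.23 and Ckap2l has a wide bar across 0; in microglia all 10 lie above 0.

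With all 10 candidates together, cells with any of them were compared with cells with none, which is read only for other genes. In EC 4.9% of 15582 genes were called higher and 4.46% lower (6865 cells with and 21022 without). These shares include the candidates, whose rise the grouping fixes. Without the candidates, 755 of 15573 genes (4.85%) were higher. Junb, Jund, Ifrd1 and Tpm3 were the upstream genes that rose, by 0.48, 0.38, 0.62 and 0.43 on the log2 scale, each in 11 of 11 mice (edgeR adjusted p from 1.5e-43 to 1.4e-31). Actb (0.04), B2m (−0.06), Calr (−0.07) and Entpd1 (−0.04) were not called, nor were Il1a and Mir142hg. In microglia 0.444% of 13743 genes were called higher and 1.03% lower, and without the candidates 0.371% of 13733 were higher. Il1a was called higher there (0.22) and Actb lower (−0.22), the other 8 upstream genes not being called. The candidates that set these groups were named with microglial results known. Calls in microglia are therefore a description and no independent test.

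Of the 5 genes with the highest change in EC, Pde4c, a cAMP phosphodiesterase, had the most UMIs and stood at 75.2 ± 45.3 CPM in EC with a candidate and 15.2 ± 8.74 CPM in EC with none (2.24 ± 0.08 on the log2 scale, edgeR adjusted p = 8.2e-73, 11 of 11 mice). Pde4c begins 6069 bases past the end of Iqcn on the same strand, 23103 bases past Jund, with Gm3336 between them. In microglia Pde4c led with 3.95 ± 0.29 (24.0 against 1.22 CPM) and Gm3336, which begins 892 bases past Iqcn, stood at 3.19 ± 0.29. Both were thus found with candidates in a row of genes behind Jund. The other 4 genes with the highest changes in EC were Rtbdn (2.67), Bicdl2 (2.38), Gm44386 (2.34) and Cd4 (2.22), all at or under 3.71 CPM in either kind of cell. Rtbdn lies 6 bases from Rnaseh2a on the opposite strand. The lowest in EC were Col3a1 (−2.72), 5730405O15Rik (−1.64), Erbb4 (−1.30), Ptchd1 (−1.04) and Cd52 (−0.95), and Col3a1 rests on 1 UMI in the cells with a candidate.

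In microglia Hmmr (3.34) and Tpx2 (3.18), spindle proteins of dividing cells, and Rtn2 (3.17) followed, on 19, 22 and 32 UMIs in the cells with a candidate. Ckap2l is itself a gene of dividing cells, and its part in these changes was not tested. Coa4, Glo1, Klf11, Arl14ep and Rapsn were the lowest there (−1.06 to −0.70). In SMC, where 4 mice had enough cells and 100 cells held a candidate, 0.0344% of 8720 genes were called higher and 0.0573% lower. The higher ones were candidates alone, which the grouping itself fixes, so they are no result. Sub1, Myl9, Acta2, Crip1 and Malat1 were the lower ones (−1.53 to −0.31). None of the lower calls was left with DESeq2 size factors, with DESeq2, with filterByExpr, or without WT-TgN3 mouse 2 or 4 (0 genes each). No other gene was higher by the edgeR test in SMC, while 588 of all genes tested had an unadjusted p under 0.05.

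Polg2, an accessory subunit of the mitochondrial DNA polymerase (chr11:106768253-106779537, minus strand), lies behind Ddx5, an RNA helicase (chr11:106780355-106789185, minus strand), and is a further gene of this kind from earlier results of these data. In EC with a candidate it stood at 110 ± 26.3 CPM and in EC with none at 53.5 ± 7.72 CPM, higher in 11 of 11 mice (1.00 ± 0.05, edgeR adjusted p = 1.9e-44), whereas Ddx5 moved by 0.07 ± 0.02 (edgeR adjusted p = 0.0492). Milr1, which overlaps the end of Polg2 on the opposite strand (chr11:106751226-106768794), rose by 1.19 ± 0.08 and Nfe2l3, a relative of the NRF2 transcription factor, by 0.88 ± 0.08. As for the candidates, the microglial values of these genes are given without a test, since results of microglia were known before. Polg2 was higher there by 0.94 ± 0.14, Nfe2l3 by 1.18 ± 0.16 and Milr1 by 0.54 ± 0.14, and Ddx5 stood at −0.12. Whether strand was used in the counting is not stated in the sources used here. How reads from the overlap of Polg2 and Milr1 were assigned was not tested.

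The same position was then read across the genome. The list took genes of at most 20 CPM, next on the same strand behind a gene of at least 200 CPM in that cell type. They began within 50 kb of its end. With the candidates, Polg2 and Milr1 left out, they numbered 247 in EC, of which 181 had enough UMIs. Of these 45 (24.9%) were higher in EC with a candidate and 1 lower, with a median log2 fold change of 0.31. Genes in the mirrored place, before the start of such a gene on the same strand, had 6 of 128 (4.69%) higher and 4 lower, with a median of −0.05. Over all tested genes of at most 20 CPM, 320 of 8859 (3.61%) were higher. Without genes within 200 kb of a candidate, an alternative chosen after the data had been seen, the share behind was 45 of 180 (25%), and within 5 kb of the highly expressed gene it was 13 of 43 (30.2%). No set test was made, and the genes that passed the filter are not all genes of the list.

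The called genes with the smallest p behind a highly expressed gene in EC were 4933405D12Rik behind Usp53 (1.78), Ano2, a chloride channel, behind Vwf (1.67, 17.0 ± 8.81 against 5.23 ± 2.72 CPM, 3739 bases), Gm47507 behind Klf6 (1.33), Abcb8 behind Nos3, the endothelial nitric oxide synthase (1.10, 9188 bases), and Ldhc behind its paralog Ldha (1.51, 5575 bases). Each was higher in 10 or 11 of 11 mice. Ldha and Ldhc are similar in sequence, so reads of the pair are uncertain. Calls in microglia are again a description. There 7 of 159 such genes (4.40%) were higher and 1 lower, against 1 of 145 (0.690%) before and 32 of 7360 (0.435%) of all low genes. They included Gm26802 behind Fosb (1.65, higher in 11 of 11 mice), 1700001K19Rik behind Hsp90aa1 (1.94), Fam71a behind Atf3 (1.21), Gm47507 behind Klf6 (1.53) and Eldr behind Plek (1.87). Under the filter of edgeR's filterByExpr, which left 33 of these genes in microglia, none was called, while 20 of 58 were in EC. In SMC 0 of 40 were called.

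**Figure D5:**
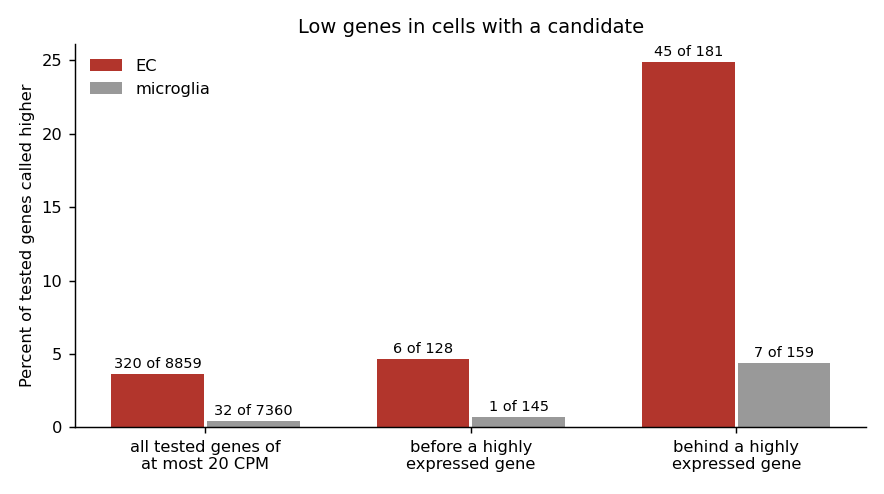
Percent of tested genes of at most 20 CPM called higher (edgeR adjusted p under 0.05) in cells with a candidate, in EC (red) and microglia (grey), for all such genes, those before and those behind a highly expressed gene on the same strand; the counts stand above the bars. The bar for genes behind is the highest in both cell types, at 45 of 181 in EC and 7 of 159 in microglia, where calls are a description.

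Immediate early and dissociation stress genes rose along with the candidates in EC and did not in microglia. In EC 24 of 25 were higher with a candidate, with a median of 0.36, among them the transcription factors Egr1 (0.73 ± 0.03, 1630 against 956 CPM), Fosb (0.72 ± 0.03), Jun (0.50 ± 0.02) and Fos (0.46 ± 0.03), each in 11 of 11 mice, and Egr2 (0.51, edgeR adjusted p = 0.0819) was the 1 not called. Junb and Jund are upstream genes as well as members of this list. In microglia 0 of 25 were higher and 9 lower, with a median of −0.10, and the count of lower genes was 1 with DESeq2 size factors. The difference between the cell types was not tested, and the part of the stress genes in the co-detection of EC was not tested.

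Genes of the cleavage and polyadenylation machinery moved little. Of 22 in EC, Pcf11, a termination factor, was higher (0.41 ± 0.05, edgeR adjusted p = 5.1e-12), and Cpsf6 (−0.23), Fip1l1 (−0.17) and Xrn2 (−0.15) were lower, none of these 3 being called under DESeq2 or the filterByExpr filter. In microglia 0 of 22 were called by edgeR or DESeq2. Of nuclear RNAs, 8 of 10 were tested in EC, Neat1 (0.39 ± 0.03) and Kcnq1ot1 (0.19 ± 0.05) were higher, and Malat1 was lower by −0.07 ± 0.02, a call that was lost with DESeq2 size factors. Of 13 genes of the mitochondrial DNA 10 were lower in EC, with a median of −0.09, while the median of all genes tested was −0.03. The median share of mitochondrial UMIs was 3.51% in EC with no candidate and 3.34% in EC with at least 2.

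Markers of other cells did not rise as lists with the candidates. Of 8 EC markers, all tested, 5 were lower in EC with a candidate (Slco1a4 −0.24, Ly6c1 −0.20, Slc2a1 −0.13, Cldn5 −0.10 and Itm2a −0.09). Among the microglia markers reported here, Cx3cr1 was higher (0.27) and P2ry12 and C1qa were lower (−0.41 and −0.37) in EC. Over the other 14 marker lists, Tubb3 was the 1 gene that was higher, and Cd34, Nrp1, Col3a1, Ttr, Gja1, Stmn2 and Hbb-bs were lower. In microglia C1qa was lower (−0.21), Slc1a2, an astrocyte marker, was higher, and no other marker reported here was called.

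Between the genotypes no candidate was called. In counts summed per mouse and cell type (edgeR quasi-likelihood test, Benjamini-Hochberg adjustment), 0% of 10970 genes in microglia, 0% of 12663 in EC and 0% of 3674 in B cells were called, and 0.011% of 9095 in SMC, which is 1 gene. DESeq2 gave the same counts, and 115, 148, 93 and 211 genes had an unadjusted p under 0.05 in microglia, EC, B cells and SMC. Of the candidates 10, 8, 4 and 0 passed the filter in microglia, EC, SMC and B cells, and 0 were called in each.

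The candidate with the smallest p in EC was Dand5. It had 20.7, 23.2 and 29.6 CPM in the lowest, the median and the highest R182C-TgN3 mouse and 18.2, 18.2, 19.6, 12.5 and 24.8 CPM in WT-TgN3 mice 1 to 5, so that the groups overlapped, with a log2 difference of 0.41 ± 0.14 (edgeR unadjusted p = 0.0134, adjusted p = 1.00). In microglia it was Trim69, with 7.22, 8.36 and 12.9 CPM in R182C-TgN3 mice and 10.4, 10.6, 5.21, 4.28 and 3.41 CPM in WT-TgN3 mice 1 to 5, again overlapping (0.51 ± 0.28, edgeR adjusted p = 1.00). All 8 candidates tested in EC had differences above 0, from 0.19 to 0.59, with a median of 0.30 where that of all genes was 0.00, and none was called. As given above, WT-TgN3 mouse 4 was the lowest mouse for 8 of the 10 candidates in EC and R182C-TgN3 mouse 2 the highest for 6, and their part in these differences was not tested. In SMC the candidate with the smallest p was Rnaseh2a (−0.32).

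The co-detection excess did not differ beyond its spread between the genotypes either. It was 37.8 ± 26.8 in 6 R182C-TgN3 mice and 28.9 ± 19.0 in 5 WT-TgN3 mice in EC, a difference of 8.87 (2-sided exact permutation p = 0.558). In microglia it was 18.8 ± 16.4 and 13.8 ± 10.3, a difference of 5.00 (exact permutation p = 0.561). Leaving out 1 mouse gave 0.145 (without R182C-TgN3 mouse 2) to 13.6 (without R182C-TgN3 mouse 6) in EC and 1.49 (without R182C-TgN3 mouse 5) to 8.77 (without R182C-TgN3 mouse 4) in microglia. Without the shared barcodes the differences were 8.597 and 3.08. With the genotypes permuted within the batches of the labels, where 1 batch held a single R182C-TgN3 mouse, the differences were 12.3 in EC and 8.44 in microglia (exact permutation p = 0.5 and 0.389).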

How the data were processed

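Single-cell libraries were made with the 10x Genomics 3′ chemistry, 1 per mouse. The authors deposited whole-number UMI counts per gene and cell barcode, made with Cell Ranger 7.0.0 on mm10 according to the submitters' processing notes; whether introns or strand were counted is not given in the sources used here. Of 66658 barcodes, 61625 held 500 or more genes and no more than 10% mitochondrial UMIs, and 3528 predicted doublets were removed. Cells were clustered (leidenalg 0.10.2, Leiden resolution 1.0) and clusters named from marker lists. Cells of at least 2000 UMIs were thinned to 2000 for co-detection and for the edgeR 4.0.16 quasi-likelihood fits, which needed at least 20 cells with and 20 without a candidate per mouse and 20 UMIs per gene, and adjusted p under 0.05 was called. Genotypes were compared on unthinned sums, with Gm, Rik, ribosomal and mitochondrial genes left out. DESeq2 1.42.0, other scalings and filters were alternatives. Positions are from GENCODE for GRCm38 (32235 of 32287 genes). Scripts were tested on simulated data. Intervals and totals cover counting error at most, with pairs taken as independent, and 1 library per mouse makes the mouse the replicate.

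The candidates, marker lists and other lists were chosen with earlier results of these data known. The text names the candidates, their upstream genes, Polg2, Milr1, Nfe2l3 and Ddx5, the 5 highest and 5 lowest other genes past the threshold per cell type, the 5 called genes with the smallest p in the positional lists, and the candidate with the smallest p between genotypes; other names were chosen after their values were seen, and so were the alternatives without shared barcodes, without the EC cluster richest in candidates and of the positional lists. Mice were paired by age and label number as an alternative: in microglia their deviations from the group means correlated in all 5 pairs (r from 0.126 to 0.482), and in EC, SMC and B cells not in all. A few genes are not reported here.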

Additional observations from a re-analysis of the deposited data

Results flagged for a closer look

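Of 56 groups of 4 to 10 mice that were checked with Dixon's criterion, 8 held a mouse apart from the rest of its group, where chance gives about 1 in 20. In EC of R182C-TgN3 mice, mouse 2 had 166 CPM of Nup210l (the others 57.3 to 82.9) and 53.2 CPM of Lsmem1 (the others 11.1 to 24.6), and mouse 5 had 1.14 CPM of Ckap2l (the others 0.356 to 0.444). In microglia of R182C-TgN3 mice, mouse 5 had 98.2 CPM of Ckap2l (the others 14.3 to 27.3) and 6.83 CPM of Lsmem1 (the others 1.26 to 2.75). R182C-TgN3 mouse 5 is also one of the libraries that share barcodes. In SMC, the co-detection excess of R182C-TgN3 mouse 5 was 10.7 pairs per 1000 cells (the others −2.93 to 1.90), and the difference between own and other upstream genes in WT-TgN3 mouse 5 was −0.21 on the log2 scale (the others 0.04 to 0.08). In B cells, the excess of WT-TgN3 mouse 2 was 5.09 (the others −3.03 to −1.65). The excess in SMC of R182C-TgN3 mouse 5 and that in B cells of WT-TgN3 mouse 2 rest on 1 pair of candidates each, and the SMC value of WT-TgN3 mouse 5 on 13 cells with a candidate.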

How the results depend on the processing

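In EC the co-detection excess and the preference for the own upstream gene kept their direction and their side of the threshold under every alternative run. The small values of SMC and B cells changed sign easily. The SMC excess was −0.204 within 5 groups ordered by Malat1, −2.66 at 5% mitochondrial UMIs, −0.173 with doublet removal doubled, −0.0478 at a clustering resolution of 2.0, and −0.163, −0.668 and −0.368 without Nup210l, Dand5 or Cc2d2b; without 1 mouse it ran from −0.477 to 0.947. The B cell excess was −0.863 at 5% mitochondrial UMIs and 1.21 to 6.17 without 1 mouse. Without thinning, where depth differs between cells, the excess was 32.6 in SMC (exact permutation p = 0.0410), 16.2 in B cells (exact permutation p = 0.0371) and 68.0 in microglia, and the preference for the own upstream gene was 0.22 in SMC (exact permutation p = 0.00195) and −0.11 in B cells (exact permutation p = 0.0391). That preference in SMC was 0.15 without Cc2d2b (exact permutation p = 0.0342) and 0.054 to 0.12 without 1 mouse, passing without WT-TgN3 mouse 5 (exact permutation p = 0.00391), and in B cells −0.072 to 0.00319, above 0 without R182C-TgN3 mouse 6. The microglial difference between genotypes was −0.239 at 1000 UMIs.

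Counts of genes moved with the scaling. In EC 755 other genes were higher and 695 lower (52.1% of calls higher). Lower genes numbered 345 with DESeq2 size factors (73.4% higher), 120 with DESeq2 (82.3%), 364 with filterByExpr (67.6%) and 380 at 1000 UMIs, where 289 were higher. In microglia 51 were higher and 142 lower (26.4% higher). Higher genes numbered 24 with DESeq2, 25 with filterByExpr and 16 at 1000 UMIs, and lower genes 14 with DESeq2 size factors (80.6% higher), 6 with DESeq2, 11 with filterByExpr, 238 at 1000 UMIs and 73 to 118 without 1 mouse, lowest without R182C-TgN3 mouse 6. In SMC lower genes numbered 0 with each of DESeq2 size factors, DESeq2 and filterByExpr, 36 with no filter and 0 to 3 without 1 mouse, and higher genes 0 to 1. Between genotypes 0 to 1 gene was called in microglia without 1 mouse (1 without WT-TgN3 mouse 5) and 6 in B cells with no filter. Ckap2l in EC ran from −0.29 to 0.32 without 1 mouse, below 0 at −0.05, −0.29, −0.13 and −0.29 without R182C-TgN3 mice 1 or 2 or WT-TgN3 mice 1 or 4. The cause was not tested.

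With the pairs of mice as a replicate block, the genotype difference of the excess was 12.3 in EC (exact permutation p = 0.5) and 8.44 in microglia (exact permutation p = 0.375), and the block changed no other call. The paired mice share age and the batch of the labels, and their deviations correlated in all 5 pairs in microglia alone. The fit of B cells with and without a candidate was not run because fewer than 3 mice qualified, those of SMC by the 2 parts of the list because none did, and that of SMC at 1000 UMIs for too few mice. The number of cells limits SMC and B cells, with 7 and 4 observed pairs.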
